A study of Mus musculus with 14 samples.

Results

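Horizontal basal cells are the flat reserve stem cells that sit on the basement membrane of the olfactory epithelium. The 8 genes described here, Krt5, Krt14, Krt15, Krt17, Trp63, Ngfr, Icam1 and Itgb4, were taken by symbol from the 51211 gene symbols of both tables of normalized counts, and all 8 passed the filter on low values in each experiment. RNA of whole olfactory epithelia taken at P5 (postnatal day 5) was measured in 14 mice, in a pair of separate experiments. In the Kir2.1 experiment, 3 mice carried OMP-IRES-tTA together with tetO-Kir2.1-IRES-tauLacZ, and their 3 controls were OMP-IRES-tTA het, so the tTA allele was present in both groups. The treatment label of the former reads Kir2.1-off, a name the study otherwise gives to mice whose transgene was shut down with doxycycline, so the group is named below by its genotype alone. OMP marks mature sensory neurons, so the transgene, a potassium channel that damps firing, is driven by a promoter of mature neurons rather than of basal cells. In the PEA experiment, 4 wild type mice were exposed to 2-phenylethylamine (PEA), an odor mice avoid, from P0 until P5, and 4 wild type mice were not exposed. The labels give C57BL/6 as the strain background throughout, while the methods of the study name CD-1 pups for PEA.

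Horizontal basal cells are quiet under normal conditions and are called on when the epithelium is injured. The transcription factor p63, encoded by Trp63, holds them in this reserve state, and its loss lets them enter the neuronal and supporting lineages. They are anchored by hemidesmosomes, in which integrin beta 4 spans the membrane and connects to the keratin filaments that keratin 5 and keratin 14 build as partners. None of the 8 genes is confined to these cells. Basal cells of respiratory and squamous epithelium also use the keratins, p63 and integrin beta 4, glia and fibroblasts use Ngfr, and endothelial cells and leukocytes use Icam1. In whole tissue, fewer cells of a type and less RNA per cell cannot be told apart.

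The libraries of the Kir2.1 experiment were read at 40 bp, and at that length keratin genes share part of their sequence. Krt14, Krt15 and Krt17 lie close to each other on the minus strand of chromosome 11 (GRCm38), at 100203162 to 100207548, 100131758 to 100135928 and 100256217 to 100261029, and their aligned coding bases were 84.1% identical between Krt14 and Krt17, 73.2% between Krt14 and Krt15 and 73.7% between Krt15 and Krt17. The stretch of 120 coding bases in exon 6 shown here is given because it is where Krt14 and Krt17 are closest. Capitals mark bases that differ from Krt14. Krt17 differs by 1 base, A71G, counted from 1 at the first base of the stretch with the Krt14 base first, whereas Krt15 differs at 26 positions. The stretches are at chr11:100204136-100204255, chr11:100257461-100257580 and chr11:100133019-100133138, in that order, all read from the minus strand of the GENCODE vM21 transcripts.
Krt14: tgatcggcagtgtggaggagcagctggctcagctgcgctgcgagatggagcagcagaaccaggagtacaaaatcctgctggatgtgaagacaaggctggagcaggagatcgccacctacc
Krt17: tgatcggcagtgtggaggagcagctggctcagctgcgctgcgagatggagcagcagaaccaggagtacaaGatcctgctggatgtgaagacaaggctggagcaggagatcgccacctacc
Krt15: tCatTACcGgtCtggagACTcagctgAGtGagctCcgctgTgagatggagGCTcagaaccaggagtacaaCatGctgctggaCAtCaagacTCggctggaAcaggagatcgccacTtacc

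Over whole transcripts most 40-base windows of these keratins were found in no other gene. For Krt14, 21.3% of the 40-base windows were also found in a transcript of another gene, most often Krt16, and the shares were 13.6% for Krt5 (most often Krt6a), 8.99% for Krt17 (most often Krt14) and 1.99% for Krt15. At 150 bases, the read length of the PEA experiment, no window of any of these 4 keratins was shared. Krt16 was between 0 and 6.86 normalized counts in every mouse of both experiments, and Krt6a was between 1.03 and 98.1 in the Kir2.1 experiment. Icam1 shared 18.9% of its 40-base and 15.2% of its 150-base windows with the overlapping gene model Gm47079, which was between 0 and 11.5 normalized counts. Itgb4 shared 5.69% of its 40-base windows with the gene model B230344G16Rik, and Ngfr shared 1.29% with other genes. Trp63, the only one of the 8 with no shared window at either length, is also the poorest in GC, at 44.2% of its principal transcript against 55.3% to 59.6% in the others.

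The windows of 250 bases upstream of the RefSeq starts are shown for Icam1 and Krt5, the former because it holds a match to a motif, the latter for comparison as the leading marker of these cells. Icam1 (chromosome 9, 21015985 to 21028817, plus strand) is a known target of NF-kB, and GGAANTTCC, a spelling of the NF-kB site that reads the same on both strands, was found once in its window at chr9:21015690-21015939 (GRCm38.p6, plus strand) and is in capitals. This spelling was found in 0.813% of the 32851 RefSeq promoter windows of the same length. Neither it, nor the AP-1 site TGANTCA (6.75% of windows), nor TATAAA on either strand (12.4% of windows), was found in the Krt5 window at chr15:101712906-101713155 (minus strand). Krt5 itself lies on chromosome 15, at 101707070 to 101712898.
Icam1: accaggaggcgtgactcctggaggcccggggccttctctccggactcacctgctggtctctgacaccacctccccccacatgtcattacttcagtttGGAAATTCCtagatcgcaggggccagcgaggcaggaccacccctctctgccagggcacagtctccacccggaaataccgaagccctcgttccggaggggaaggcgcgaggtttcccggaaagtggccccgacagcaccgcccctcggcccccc
Krt5: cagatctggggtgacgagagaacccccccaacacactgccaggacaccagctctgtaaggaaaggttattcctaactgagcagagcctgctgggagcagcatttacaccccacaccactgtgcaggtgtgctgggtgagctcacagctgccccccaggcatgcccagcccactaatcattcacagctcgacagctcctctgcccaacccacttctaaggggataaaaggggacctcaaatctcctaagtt

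All 8 genes were detected in all 14 mice. To compare levels between genes, normalized counts were divided by the length of the principal transcript in kb, within each experiment only, since the library types differ. In the control mice of the Kir2.1 experiment, Krt5 had the highest level (1108 ± 252 normalized counts per kb, mean ± SD, n = 3), followed by Krt14 (623 ± 120), Krt17 (589 ± 51.1), Krt15 (382 ± 169), Itgb4 (252 ± 29.3), Trp63 (99.3 ± 34.2), Icam1 (54.4 ± 10.2) and Ngfr (35.0 ± 7.06). Krt14 and Krt17 were within each other's spread, and the level of Itgb4 fell within the wide spread of Krt15. The low end of the order did not vary, since Trp63, Icam1 and Ngfr were sixth, seventh and eighth in all 6 mice. In the PEA controls, Krt15 came first in all 8 mice (297 ± 193 in controls, n = 4), ahead of Krt5 (121 ± 29.1), Krt14 (110 ± 17.5), Trp63 (68.3 ± 10.4), Krt17 (55.3 ± 10.2), Icam1 (23.1 ± 5.24), Itgb4 (21.9 ± 2.28) and Ngfr (6.39 ± 0.400). Krt5 and Krt14 overlapped there, as did Trp63 and Krt17, and Icam1 and Itgb4. The ratio of Krt5 to its filament partner Krt14, per kb, ran only from 1.64 to 1.98 over the 6 mice of the Kir2.1 experiment and from 0.871 to 1.26 over the 8 mice of the PEA experiment, whereas the ratio of Krt5 to Krt15 ran from 0.845 to 6.43 and from 0.299 to 0.821.

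The Kir2.1 comparison asks whether silencing mature neurons goes with a different level of basal cell genes at P5. Every one of the 8 genes had a higher mean in the Kir2.1 mice, but the groups overlapped for each gene, and none was called. Kcnj2, which encodes Kir2.1, was 986 to 1274 normalized counts in the controls and 17926 to 24193 with the transgene. The high level fits the genotype label and goes against the word off in the treatment label, so the mice are compared here as mice with the transgene expressed. With limma on log2(normalized count + 1) and Benjamini-Hochberg adjustment over all genes tested, 0 of the 8 genes had an adjusted p under 0.05, where 0.353% of 19807 genes did. At an unadjusted p under 0.05 the count was again 0 of 8, where 4.93% of all genes were higher at that level. The groups overlapped for all 8 genes, where 7.26% of all genes had every Kir2.1 mouse above every control.

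**Figure D1:**
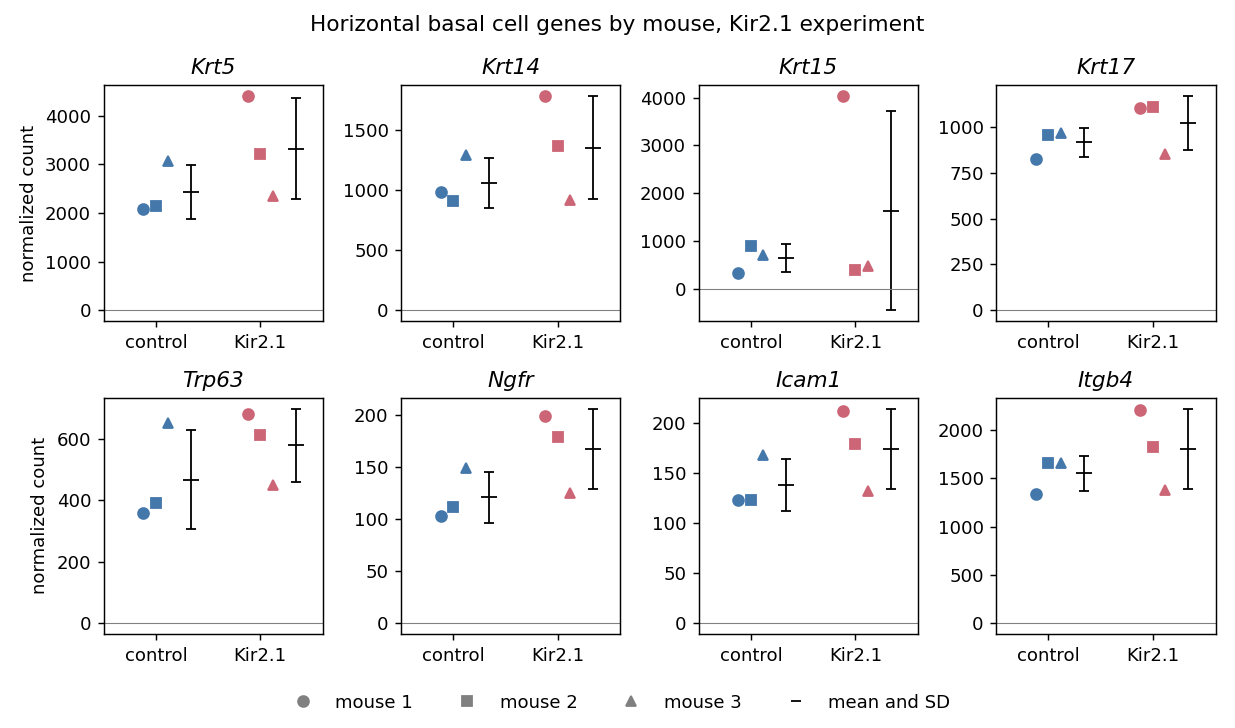
Normalized counts (y axis, from 0, linear) of the 8 genes in each of the 3 control mice and 3 Kir2.1 mice, with marker shapes giving the mouse number within its group, and black marks giving mean and SD. Mouse 1 of the Kir2.1 group is highest for 7 of 8 genes, and Krt15 reaches 4043 in that mouse alone.

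Krt5 was 2083, 2149 and 3072 normalized counts in control mice 1 to 3, and 4415, 3212 and 2345 in Kir2.1 mice 1 to 3. Kir2.1 mice 1 and 2 lay above every control, while Kir2.1 mouse 3 lay below control 3. The log2 fold change was 0.42 (SE 0.24, 95% interval -0.15 to 1.00, adjusted p = 0.607 by limma). Krt14, its partner, followed the same mice, with 979, 905 and 1290.3 in the controls and 1776, 1365 and 915 in the Kir2.1 mice. Its log2 fold change was 0.32 (SE 0.25, 95% interval -0.26 to 0.90, adjusted p = 0.723 by limma).

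Krt17, a keratin of basal and stressed epithelium, was the steadiest of the 8. It was 823, 954 and 966 in the controls and 1104, 1109 and 851 in the Kir2.1 group. The log2 fold change of Krt17 was 0.15 (SE 0.13, 95% interval -0.15 to 0.46, adjusted p = 0.748 by limma). Krt15, a keratin of basal cells in many stratified epithelia, was the least steady. It was 335, 898 and 714 in the controls, and 4043, 387 and 479 in the Kir2.1 mice. A single mouse, Kir2.1 mouse 1, thus set the group mean, and the other 2 Kir2.1 mice lay within the control range. The log2 fold change of 0.60 (SE 0.87, 95% interval -1.44 to 2.64, adjusted p = 0.871 by limma) became -0.47 (SE 0.40) without that mouse.

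Trp63 (chromosome 16, 25683763 to 25892102) was 358, 391 and 652 in the controls and 679, 611 and 448 in the Kir2.1 mice, and control 3 again lay among the Kir2.1 mice. Its log2 fold change was 0.34 (SE 0.25, 95% interval -0.26 to 0.94, adjusted p = 0.711 by limma). Itgb4 (chromosome 11, 115974709 to 116008412) was 1342, 1654 and 1655 in the controls and 2210.1, 1824 and 1378 in the Kir2.1 group (0.20, SE 0.18, 95% interval -0.22 to 0.61, adjusted p = 0.766 by limma). Ngfr (chromosome 11, 95568818 to 95587735), which encodes the neurotrophin receptor p75, was 103, 111 and 148 in the controls and 199, 179 and 125 in the Kir2.1 group (0.46, SE 0.23, 95% interval -0.08 to 1.00, adjusted p = 0.538 by limma). Icam1, an adhesion molecule that binds leukocyte integrins, was 123, 123 and 168 in the controls and 212, 179 and 132 in the Kir2.1 group (0.33, SE 0.22, 95% interval -0.19 to 0.84, adjusted p = 0.675 by limma). In all 4 of these genes Kir2.1 mouse 3 lay within the range of the controls.

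The genes shared an order of mice that cut across the groups. Control 3, Kir2.1 mouse 1 and Kir2.1 mouse 2 were above the median of the 6 mice for 8, 8 and 7 of the 8 genes, and control 1 and Kir2.1 mouse 3 for 0. Control 1 was the lowest mouse for 7 of 8 genes. The 8 genes are therefore not 8 separate observations of a difference between the groups. Without Kir2.1 mouse 1, the log2 fold changes dropped to between 0.04 (Itgb4) and 0.32 (Ngfr) for the 7 genes other than Krt15. Krt14 lay closest to Krt5 among the 8 genes, with a root mean square difference of 0.08 on the log2 scale once each gene's own mean over the 6 mice was removed, followed by Icam1 (0.10), Ngfr (0.10), Trp63 (0.14), Itgb4 (0.20) and Krt17 (0.26). Krt15 was at 0.97. Among all genes tested, the 5 closest to Krt5 were Lrg1 (0.06), Sox18 (0.08), Krt14 (0.08), Hydin (0.09) and Dnah6 (0.09). Hydin and Dnah6 encode parts of motile cilia, and Sox18 is a transcription factor of endothelial cells. The 5 closest to Trp63 were Gpnmb (0.09), Igsf10 (0.09), Pcdhga4 (0.10), Ccn4 (0.10) and Bcas1 (0.11). The ranks are over 6 mice and 19807 genes and are a description.

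**Figure D2:**
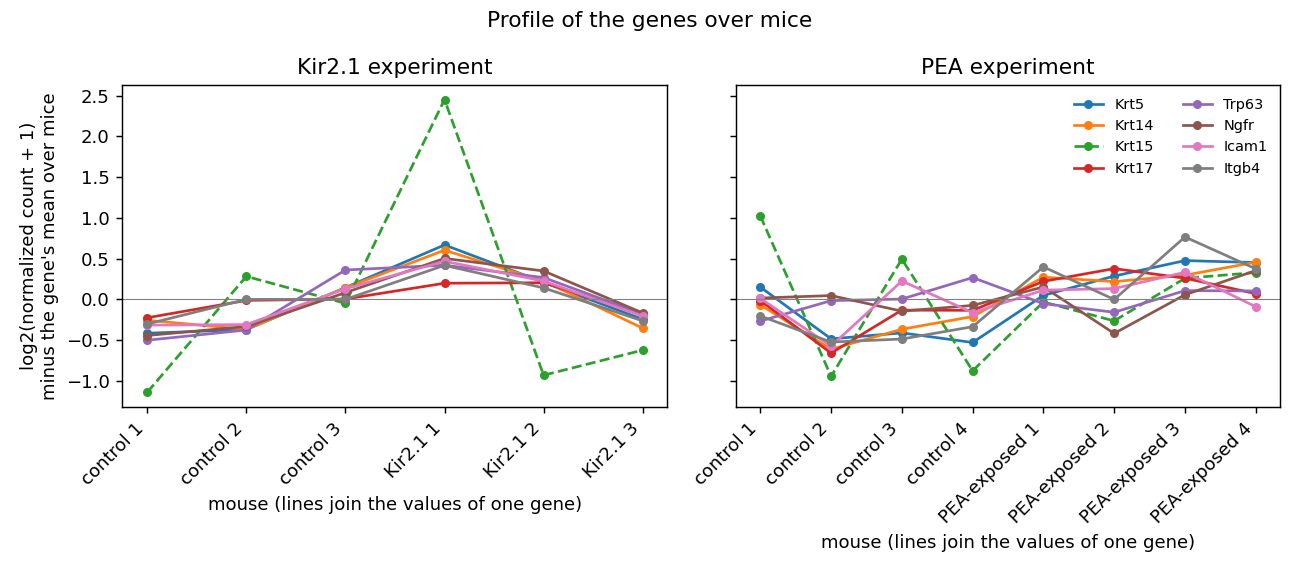
Deviation of each gene's log2(normalized count + 1) from its own mean over the mice of an experiment (y axis), by mouse (x axis), 1 line per gene, Krt15 dashed. In the Kir2.1 experiment 7 of the lines run close together and Krt15 departs, by 2.45 in Kir2.1 mouse 1, and in the PEA experiment the lines for Trp63, Ngfr and Krt15 leave the others.

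Markers of other tissue also differed between these mice, and only some of the lists followed the order of the basal cell genes. Summed markers of respiratory ciliated cells (7 genes, led by Foxj1 and Tekt1) were 17481, 19504 and 20893 in controls 1 to 3 and 29236, 20255 and 21043 in Kir2.1 mice 1 to 3, lowest in control 1 and highest in Kir2.1 mouse 1, with Kir2.1 mouse 3 above Kir2.1 mouse 2. Summed mesenchymal markers (7 genes, led by Col1a1 and Pdgfra) were 86565, 67303 and 188090.0 in the controls and 150339, 172726 and 128993 in the Kir2.1 mice, with 4 of 7 genes higher at an unadjusted p under 0.05. The same 3 mice, control 3 and Kir2.1 mice 1 and 2, were highest for these markers and for most of the 8 genes. They were also highest for the respiratory secretory markers (7 genes, of which Bpifa1 gave most of the sum), at 158143, 155798 and 277098 in the controls and 271310 and 273387 in Kir2.1 mice 1 and 2, against 224471 in Kir2.1 mouse 3. Summed endothelial markers (7 genes, led by Pecam1 and Cdh5) were 1700.5, 1649 and 1981 in the controls and 2672, 1917 and 1934 in the Kir2.1 mice. Leukocyte markers (8 genes, led by Ptprc and Cd68) did not follow the order, at 3710, 3425 and 3403 in the controls, with control 3 lowest, and 4519, 4404 and 3674 in the Kir2.1 mice. Vomeronasal receptor genes summed to 11787 in control 1, the mouse lowest for most of the 8 genes, and to between 1448 and 1743 in the other 5. Their part in the differences was not tested. With the vomeronasal sum as a covariate, a fit added after the data were seen, the log2 fold changes of the 8 genes lay between 0.08 and 0.34. Because control 1 alone stood out, that fit cannot tell the vomeronasal sum from any other trait of control 1. In Kir2.1 mouse 1, where Krt15 was 4043, Car6, a secreted carbonic anhydrase of glands, was 1409.6 against 93.5 to 477 in the other mice. Krt4, a keratin of non-keratinizing squamous epithelium, was 620.5 in that mouse against 73.0 to 362 in the others, but its 362 was in Kir2.1 mouse 2, where Krt15 was only 387. The whole list of squamous markers (15 genes, led by Krt1 and Krt10) did not follow Krt15, summing to 859, 2476 and 829 in the controls and 1324, 3680.2 and 818 in the Kir2.1 mice. Krtdap, a marker of skin, was 402 in control 2 and between 0 and 1.52 in the other 5 mice. The genes closest to Krt15 over the 6 mice, in a list added after the values were seen, were Osr1 (0.24), Pnliprp1 (0.34), Krt75 (0.39), Car6 (0.40) and Snx31 (0.42).

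Neighbouring pathways of the basal cell did not pass the test in the Kir2.1 mice either. Of 12 hemidesmosome and epithelial basement membrane genes, none was called and 0 reached an unadjusted p of 0.05, with a median log2 fold change of 0.10 against 0.01 over all genes tested. The 2 with the smallest p were Lama3, a laminin chain (0.38, SE 0.17), and Plec, which links integrin beta 4 to keratin (0.26, SE 0.13). Of 13 desmosome, adherens and p63-associated genes, Pkp3, a desmosomal plaque protein, was higher (0.20, SE 0.09, unadjusted p = 0.0467) and Cdh3, the P-cadherin of basal epithelium, was lower (-0.31, SE 0.09, unadjusted p = 0.0125), and neither was called. At an unadjusted p under 0.05, 6.20% of all genes were lower. Of 16 Notch pathway genes, which keep basal cells in reserve, 0 had an unadjusted p under 0.05. The smallest p belonged to the ligand gene Jag1 (-0.16, SE 0.08) and the target gene Hes5 (-0.44, SE 0.24).

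Of 12 tested genes for neurotrophins, their receptors and partners of p75, Ntrk3, the receptor of neurotrophin 3, and Sorcs2, a p75 co-receptor, were higher at an unadjusted p under 0.05, and Lingo1, another p75 partner, was lower. Lingo1 had the smallest p (-0.39, SE 0.10, adjusted p = 0.191 by limma), followed by Ntrk3 (0.72, SE 0.27, adjusted p = 0.393 by limma). Of 13 tested leukocyte adhesion and NF-kB genes, 12 had a higher mean in the Kir2.1 mice, with a median log2 fold change of 0.20. Itgal, the alpha chain of the leukocyte integrin that binds the Icam1 protein, had the smallest p (0.66, SE 0.19, adjusted p = 0.257 by limma), with 306 to 384 normalized counts in the controls and 438 to 699 in the Kir2.1 mice. Itgam was next (0.45, SE 0.20, adjusted p = 0.476 by limma). Ptprc, the common leukocyte antigen, was 69.5 to 92.1 in the controls and 104 to 152 in the Kir2.1 mice. All 8 leukocyte markers had a higher mean, but the groups overlapped for every one except Ptprc. Over all genes tested, 7.26% had every Kir2.1 mouse above every control. The 46 other keratins of the table included 22 above the filter. Of these, 3 were higher and 0 lower at an unadjusted p under 0.05, and none was called. The larger changes among the 3 were those of Krt19 (0.61, SE 0.23) and Krt23 (0.41, SE 0.13).

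Cell types around the basal cells gave the following values. The markers of globose basal cells and dividing progenitors (11 genes) had a median log2 fold change of -0.01, with 0 at an unadjusted p under 0.05. Of 9 markers of mature sensory neurons, all had a lower mean and an unadjusted p under 0.05, with a median log2 fold change of -0.41, and Omp was called (-0.60, SE 0.08, adjusted p = 0.0466 by limma). Normalized counts are scaled between mice and give relative levels. A lower level of the abundant neuronal genes and a higher level of the rest therefore cannot be told apart from these values. The median log2 fold change over all genes tested was 0.01.

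The PEA comparison asks whether exposure to an odor from birth goes with a different level of basal cell genes. Itgb4, Krt14, Krt5 and Krt17 were 1.38-fold to 1.71-fold higher in the PEA-exposed mice, on the log2(normalized count + 1) scale, whereas Trp63 and Ngfr were about level. None of the 8 was called. With limma and Benjamini-Hochberg adjustment 0 of 8 had an adjusted p under 0.05, where 0.179% of 17322 genes did. At an unadjusted p under 0.05, 4 of 8 were higher, where 8.93% of all genes were higher and 6.04% lower. The groups did not overlap for 3 of 8, Itgb4, Krt14 and Krt17, where 5.46% of all genes had every exposed mouse above every control.

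**Figure D3:**
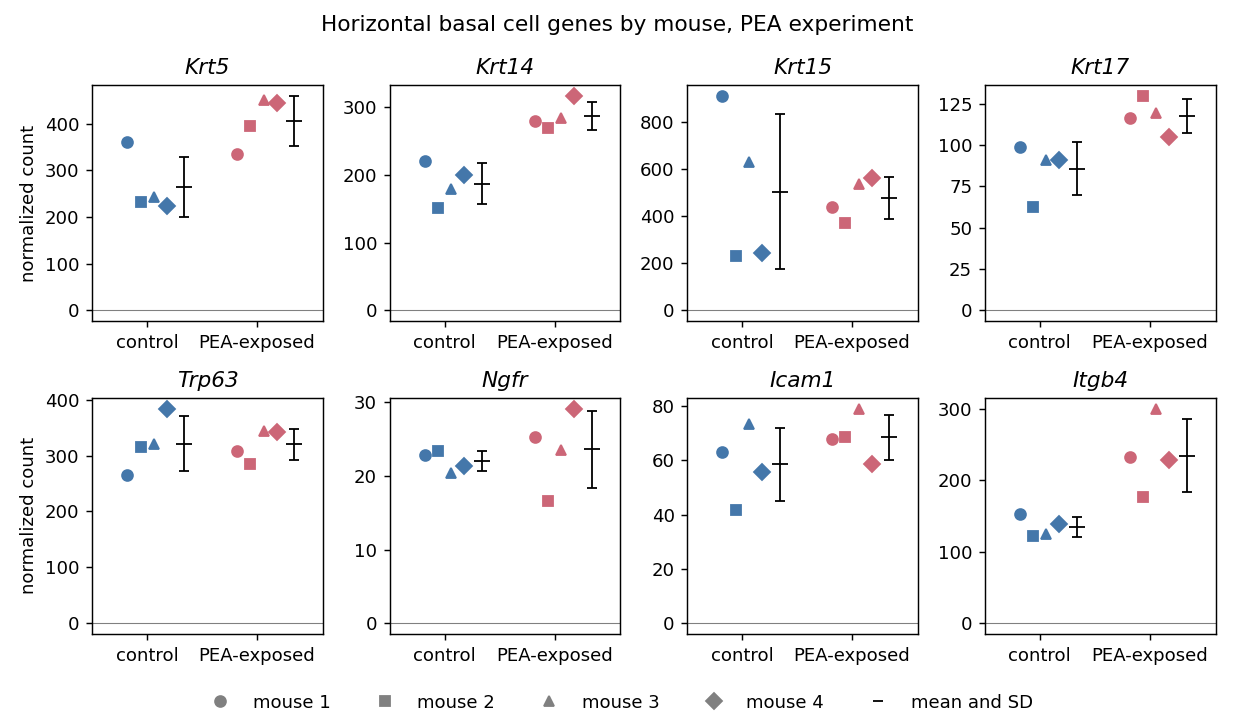
Normalized counts (y axis, from 0, linear) of the 8 genes in each of the 4 control mice and 4 PEA-exposed mice, with marker shapes giving the mouse number within its group, and black marks giving mean and SD. The groups are apart for Krt14, Krt17 and Itgb4, and Krt5 overlaps through control mouse 1, at 360.1, and exposed mouse 1, at 335.

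Itgb4 was 153, 122, 126 and 139.6 normalized counts in control mice 1 to 4 and 233, 176, 301 and 229 in PEA-exposed mice 1 to 4. Every exposed mouse lay above every control, with a gap between control 1 and exposed mouse 2. Its mean was 135 ± 14.1 in the controls and 235 ± 51.0 in the exposed mice (SD, 4 mice each). The log2 fold change was 0.77 (SE 0.17, 95% interval 0.40 to 1.15, unadjusted p = 0.000954, adjusted p = 0.104 by limma). Krt14 was 220.1, 151, 179 and 199 in the controls and 279, 268, 283 and 317 in the exposed mice, again with no overlap. Its log2 fold change was 0.62 (SE 0.14, 95% interval 0.32 to 0.93, unadjusted p = 0.00104, adjusted p = 0.108 by limma).

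Krt5 was 360.1, 231, 244 and 224 in the controls and 335, 395, 451 and 444 in the exposed mice. Control 1 stood well above the other 3 controls and above exposed mouse 1. The log2 fold change was 0.63 (SE 0.17, 95% interval 0.26 to 1.01, unadjusted p = 0.00367, adjusted p = 0.142 by limma). Krt17 was 98.8, 62.8, 90.9 and 90.7 in the controls and 116, 129.9, 119.6 and 105 in the exposed mice. The separation was narrow, with control 1 and exposed mouse 4 next to each other. Its log2 fold change was 0.47 (SE 0.17, 95% interval 0.09 to 0.85, unadjusted p = 0.0212, adjusted p = 0.249 by limma).

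The other 4 genes did not separate the groups. Trp63 was 265, 316, 319.97 and 384 in the controls and 308, 286, 344 and 343 in the exposed mice, a log2 fold change of 0.003 (SE 0.13, 95% interval -0.29 to 0.30, adjusted p = 0.995 by limma). In this fit the interval of Trp63 does not reach the fitted values of Itgb4, Krt14, Krt5 or Krt17, but the difference between the genes was not tested. The fit carries a trend on GC content that is described below. With that trend removed, Trp63 was at 0.13 (SE 0.12), Krt17 at 0.17, Krt14 at 0.39, Krt5 at 0.41 and Itgb4 at 0.45. Ngfr was the lowest of the 8, with 22.9, 23.4, 20.4 and 21.4 in the controls and 25.2, 16.7, 23.5 and 29.2 in the exposed group (0.08, SE 0.25, 95% interval -0.48 to 0.63, adjusted p = 0.917 by limma). Icam1 was 63.1, 41.7, 73.3 and 55.7 in the controls and 67.7, 68.6, 79.0 and 58.7 in the exposed group (0.25, SE 0.20, 95% interval -0.21 to 0.70, adjusted p = 0.610 by limma). Krt15 was 912, 232, 631 and 243 in the controls and 438, 373, 536 and 563 in the exposed mice, so that the controls alone spanned both ends of the range (0.15, SE 0.40, 95% interval -0.74 to 1.04, adjusted p = 0.896 by limma). Controls 1 and 3, the mice with high Krt15, also had the highest Krt4 (119.99 and 124, against 28.6 to 64.8 in the other 6 mice) and Krt6a (32.8 and 44.0, against 3.59 to 7.83), both keratins of squamous epithelium. The part of squamous tissue in the Krt15 values was not tested.

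**Figure D4:**
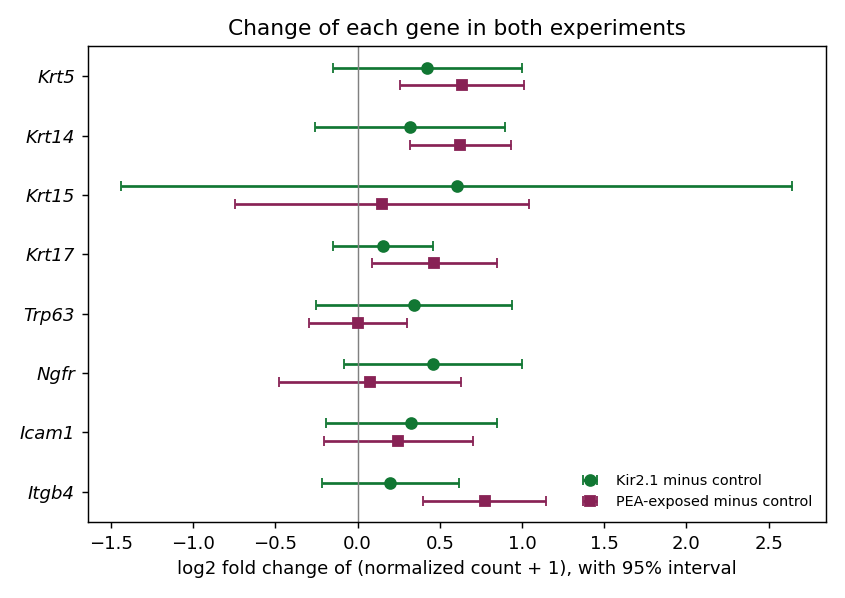
Log2 fold change of log2(normalized count + 1) (x axis) for each gene, circles for Kir2.1 minus control (3 against 3 mice) and squares for PEA-exposed minus control (4 against 4 mice), with 95% intervals from limma that are not adjusted for the number of genes. The intervals of Krt5, Krt14, Krt17 and Itgb4 lie above 0 in the PEA experiment, and all 8 intervals of the Kir2.1 experiment include 0.

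Fold changes in the PEA experiment ran with the GC content of the transcript over all genes tested, and the basal cell genes sit at its high end. When the genes were ranked by GC content and split into 10 equal parts, the median log2 fold change was -0.19 in the part poorest in GC, up to 40.2%, and 0.32 in the richest, from 57.7%. In the same split of the Kir2.1 experiment the medians lay between -0.07 and 0.02. Krt5, Krt14, Krt15 and Icam1 fall in the ninth part of the PEA split, whose median was 0.20. Krt17, Ngfr and Itgb4 fall in the part richest in GC, whose median was 0.32. Trp63 falls in the third, whose median was -0.13. With each mouse's trend on GC content removed before the fit, an alternative added after the data were seen, the log2 fold changes were 0.45 for Itgb4 (SE 0.21, unadjusted p = 0.0526), 0.41 for Krt5 (SE 0.16, unadjusted p = 0.0330), 0.39 for Krt14 (SE 0.15, unadjusted p = 0.0249) and 0.17 for Krt17 (SE 0.17, unadjusted p = 0.346). In that fit Krt15 was at -0.01, Ngfr at -0.21, Icam1 at 0.08 and Trp63 at 0.13, and the groups overlapped for all 8 genes. The shares over all genes given above belong to the fit without removal of the GC trend. None is given for the fit with the trend removed. Over the 8 genes the smallest adjusted p by limma was then 0.412.

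**Figure D5:**
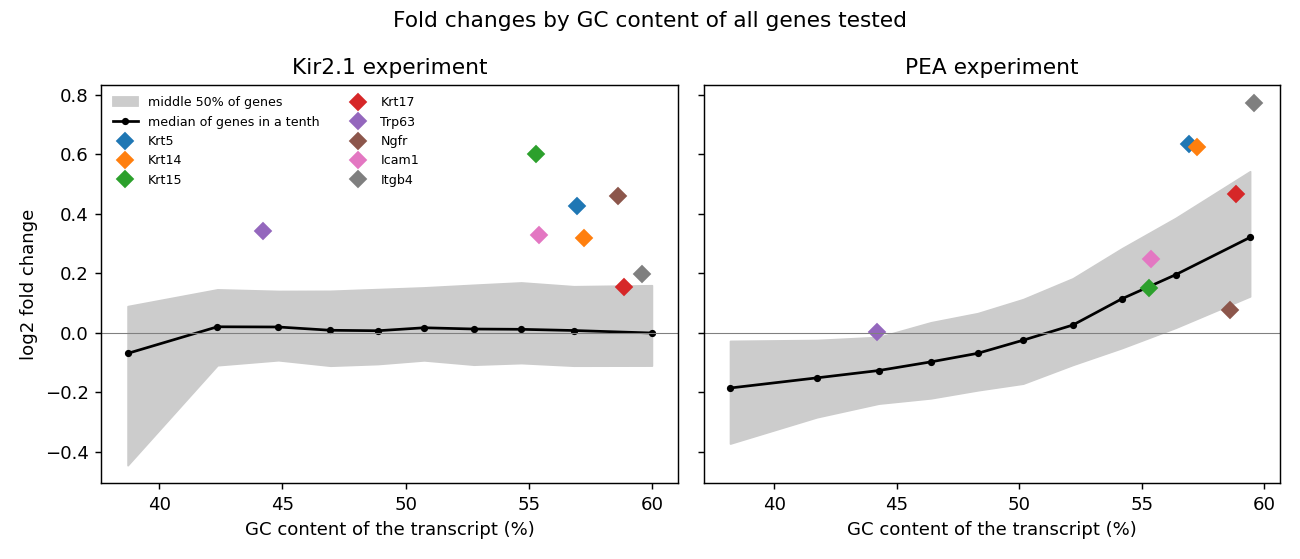
Log2 fold change (y axis) against GC content of the principal transcript in percent (x axis) in each experiment, with the median (line) and the middle 50% (grey band) of all genes tested in each of 10 equal parts by GC content, placed at the median GC content of that part, and the 8 genes as diamonds. The line is flat in the Kir2.1 experiment and climbs from -0.19 to 0.32 in the PEA experiment, where 7 of the 8 genes are at 55.3% GC or above.

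The pattern over the 8 mice differed from gene to gene in the PEA experiment. Krt14 lay closest to Krt5 among the 8 genes (root mean square difference 0.18 on the log2 scale after each gene's mean was removed), then Itgb4 (0.24), Krt17 (0.26), Icam1 (0.34), Ngfr (0.40), Trp63 (0.46) and Krt15 (0.53). The 5 genes of the whole table closest to Krt5 were Mfsd6l (0.09), Atp2c2 (0.12), Wnt11 (0.13), Dnaic2 (0.13) and Use1 (0.14), of which Dnaic2 encodes a dynein chain of motile cilia. Those closest to Trp63 were Coa5, Tatdn2, Zdhhc9, Borcs7 and Fam76b, all at 0.05 to 0.06, but Trp63 hardly varied over these mice (root mean square deviation 0.16), so that likeness to it says little. Among the genes closest to Krt15 were Zbp1 (0.12), Fads2b (0.24), Paox (0.25) and 6820408C15Rik (0.25). Control 2 was the lowest mouse for 5 of the 8 genes, and exposed mice 3 and 4 were above the median of the 8 mice for 8 and 7 genes.

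Genes of the hemidesmosome and basement membrane differed among themselves, with a higher mean in the exposed mice for 9 of 12. Of 12 hemidesmosome and basement membrane genes, 5 were higher and 0 lower at an unadjusted p under 0.05, and 0 were called. Over all genes tested, 8.93% were higher and 6.04% lower at that level. The median log2 fold change of the 12 genes was 0.25 against -0.02 over all genes tested. Values for this list and the lists that follow come from the fit without removal of the GC trend. The sum of the 12 genes was 13495 to 13904 in the controls and 12143 to 13821 in the exposed mice. Dst and Itgb1, with control means of 4832 and 4533, gave most of that sum, so it says little about the other genes. Col17a1, the transmembrane collagen of the hemidesmosome, had the smallest p, with 159 to 239 normalized counts in the controls and 262 to 479.8 in the exposed group (0.88, SE 0.21, adjusted p = 0.117 by limma). Lamb3, a chain of the laminin that integrin beta 4 binds, was 135 to 178 and 197 to 239.9 (0.40, SE 0.13, adjusted p = 0.213 by limma). The 3 genes with lower means did not pass the test and are among the most abundant of the list. Itga6, the alpha chain that pairs with integrin beta 4, had a mean of 1465 in the controls and 1326.5 in the exposed mice (-0.15, SE 0.13), Dst, which ties the hemidesmosome to keratin, was at -0.21 (SE 0.12), and Itgb1, another integrin beta chain, at -0.14 (SE 0.11). Of 12 tested desmosome, adherens and p63-associated genes, Pkp3 was higher (0.83, SE 0.25, unadjusted p = 0.00764) and Dsp, the desmosomal plaque protein desmoplakin, was lower (-0.28, SE 0.10, unadjusted p = 0.0221). Dsg3, a desmoglein of basal cells, was under the filter.

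Of 15 tested Notch pathway genes, 3 were higher and 1 lower at an unadjusted p under 0.05. Lfng, which modifies Notch receptors, was 69.9 to 118 in the controls and 146 to 177 in the exposed group (0.76, SE 0.18, adjusted p = 0.119 by limma). Rbpj, the DNA-binding partner of Notch, was 615 to 1105 in the controls and 488 to 560.4 in the exposed group (-0.66, SE 0.16, adjusted p = 0.123 by limma). Of 10 tested neurotrophin genes, Sorcs2 was higher (0.56, SE 0.15, adjusted p = 0.142 by limma), and Maged1, a p75 partner, had the next smallest p (0.19, SE 0.11). Of 12 tested leukocyte adhesion and NF-kB genes, Vcam1, an endothelial adhesion molecule, was lower (-0.54, SE 0.17, adjusted p = 0.204 by limma), Nfkb1 had the next smallest p (0.17, SE 0.10), and the median log2 fold change was 0.01. Of 11 other keratins above the filter, Krt19 was higher (0.44, SE 0.15) and Krt26 lower (-0.76, SE 0.32) at an unadjusted p under 0.05, and neither was called. Krt26 was at 19.0 to 30.8 normalized counts in the controls and 7.97 to 18.0 in the exposed mice.

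Markers of other cells gave these values in the PEA experiment. Globose basal and progenitor markers (11 genes) had a median log2 fold change of -0.01, with 1 higher and 1 lower at an unadjusted p under 0.05. Respiratory ciliated markers summed to between 9677 and 13488 in the controls and between 9971 and 12407 in the exposed mice, with 3 of 7 genes higher in mean, 4 lower and a median log2 fold change of -0.11. A pair of them separated the groups, in opposite directions. Of all 17322 genes tested, 946 had every exposed mouse above every control and 668 had every exposed mouse below every control. Foxj1, the master regulator of motile cilia, was 375 to 484 in the controls and 552 to 653 in the exposed group (0.51, SE 0.11, adjusted p = 0.104 by limma). Dnah11, a dynein chain of motile cilia, was 1574 to 2131.5 and 1159 to 1412.6 (-0.50, SE 0.12, adjusted p = 0.119 by limma). Of 5 tested respiratory secretory markers, Muc5ac, a mucin of goblet cells, was called (1.75, SE 0.26, adjusted p = 0.0284 by limma), and 2 others were higher at an unadjusted p under 0.05. Bpifa1, which gave most of the sum, had a lower mean in the exposed mice (-0.32, SE 0.20). The secretory markers summed to between 57582 and 107383 in the controls and between 60106.5 and 69553.5 in the exposed mice. Scgb1a1 and Tff3 of the same list were at 0 in all mice of both experiments. Squamous markers summed to 236 and 308 in controls 1 and 3, and to between 89.3 and 126 in the other 6 mice. Mesenchymal markers summed to between 29024 and 40916 in the controls and between 26559 and 33106 in the exposed mice, and endothelial markers to between 894 and 1172 and between 887 and 1133. Vomeronasal receptor genes summed to 10636, 5088, 3015 and 656 in controls 1 to 4 and to 7886, 678, 654 and 586 in exposed mice 1 to 4. With that sum as a covariate, a fit added after the data were seen, Itgb4 was at 0.78, Krt5 at 0.65, Krt14 at 0.61 and Krt17 at 0.46. The part of these other cell types in the differences was not tested.

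Set side by side, the experiments gave Itgb4 a log2 fold change of 0.20 (Kir2.1) and 0.77 (PEA), and Ngfr one of 0.46 and 0.08. Library type, read length and strain as given in the methods differ between the experiments, and the difference between them was not tested.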

How the data were processed

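Kir2.1 libraries were poly-A selected and read at 40 bp, single-end and unstranded. PEA libraries were freed of ribosomal RNA, stranded, and read single-end at 150 bp. The deposited values are a signal per gene that the authors made with Salmon 1.3.0 (GRCm38) and scaled with DESeq2 1.30.0, and they are called normalized counts. Per the study's methods, Salmon was run with a reverse-stranded setting, also for the unstranded libraries. Per mouse the values summed to between 33049111 and 34198478 (Kir2.1) and between 11476120 and 12467331 (PEA), after scaling, so these are not read totals. Whole reads could not be recovered for most values, and no count model was fitted.

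Genes with a mean of at least 10 in an experiment were tested on log2(normalized count + 1), in each experiment alone, by the moderated test of limma 3.58.1 (R 4.3.3), which shrinks variances toward their trend on mean expression. P-values were adjusted by Benjamini-Hochberg over all genes tested, with a threshold of 0.05. The scale understates changes of low genes. GC content, lengths and shared windows came from principal transcripts of GENCODE vM21 (GRCm38), upstream windows from RefSeq (GRCm38.p6), with entries for 4 of the 8 genes. The entry for Krt14 starts 1518 bases inside the gene and was not used as its promoter. The test was checked on simulated data. Genes named are the 8 genes, the first 2 of each marker list, up to 2 per pathway list with the smallest p, list genes with an adjusted p under 0.05, other keratins by count, and the 5 genes closest to Krt5 and to Trp63. A few genes that this rule names are not reported here. Further genes were named after their values were seen: Krt4, Krt6a, Krt16, Car6, the neighbours of Krt15, and single list genes given as examples. The 8 genes and the lists were chosen with earlier results of these data known.

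Groups came from the sample labels. The fourth PEA control carries the number 5 in its library name. The methods of the study describe the Kir2.1 pups together with littermates, but no source states a shared litter or day for equal numbers. The alternatives were a pseudocount of 0.5 or 5, all genes with any signal, a minimum mean of 50, no trend, robust moderation, median centring, the replicate number as a block, each mouse left out and a threshold of 0.10. Added after the data were seen were the vomeronasal receptor sum, sex by Xist, and removal of each mouse's GC trend.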

Additional observations from a re-analysis of the deposited data

Results flagged for a closer look

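Krt5 in PEA control mouse 1, at 360.1 normalized counts, lay far from the other 3 controls, which were between 224 and 244. The gap was larger than Dixon's 95% critical value allows for 4 samples. Chance alone marks about 1 group in 20 this way, and 16 groups of 4 were looked at, 8 genes in each PEA group. The same mouse had the highest summed vomeronasal receptor value (10636) and the highest summed leukocyte markers (2427) of the 8 mice. Its sums were also the highest for sustentacular, respiratory ciliated, respiratory secretory, endothelial and mesenchymal markers. They were not the highest for squamous, glial, progenitor or neuronal markers. Its Krt14, Krt15, Krt17 and Itgb4 were also the highest of the controls, whereas its Trp63, at 265, was the lowest of the 8 mice. Without it the log2 fold change of Krt5 was 0.79 (SE 0.13, with a Benjamini-Hochberg adjusted p = 0.0699 in limma), against 0.63 with all mice.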

How the results depend on the processing

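None of the 8 genes was called in either experiment under any alternative run, and adjusted p over these fits was 0.0699 (Krt5, PEA) at its lowest. Of 287 fold changes under alternatives, 274 kept their sign. That count includes fits that could not turn a sign. The filters on the mean, the fit without the trend, robust moderation and the replicate block leave a fold change as it was. For the 13 that turned, all of Krt15, Ngfr or Trp63, the cause was not tested. Krt15 ran from -0.47 (without Kir2.1 mouse 1) to 1.22 with mice left out of the Kir2.1 experiment, and in the PEA experiment from -0.14 (without control 2) to 0.52, with -0.12 without control 4, and it was -0.0094 with the GC trend removed. Ngfr in the PEA experiment ran from -0.0306 (without exposed mouse 4) to 0.2265 with mice left out, was -0.21 with the GC trend removed, and was not tested at a mean of at least 50. Trp63 in the PEA experiment turned to -0.047 with median centring, -0.0215 with sex as a covariate and -0.0969 with the vomeronasal covariate, and with mice left out it ran from -0.0852 to 0.0926, with -0.0016 without control 2.

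All genes called in the Kir2.1 experiment numbered 70, and 20 without the trend, 171 at a threshold of 0.10, 23 with the vomeronasal covariate and 23 to 44 with each mouse left out. In the PEA experiment they numbered 31, and 52 with no filter, 128 at a threshold of 0.10, 18 with the vomeronasal covariate and 19 to 43 with each mouse left out. With the replicate number as a block they numbered 9 (Kir2.1) and 23 (PEA), and the block called none of the 8 genes. The numbers were taken to name mice and not to pair them. The correlation of deviations between equal numbers was -0.06, -0.01 and 0.16 (Kir2.1) and 0.13, -0.02, -0.05 and 0.10 (PEA). In the Kir2.1 experiment 2 of 6 mice correlated best with their own number, and in the PEA experiment 4 of 8 did. These few values cannot show whether mice shared a litter. Read totals are not known, so counting error could not be set beside the spread between mice, which matters most for Ngfr in the PEA experiment.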

Other observations

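Other cell types of the epithelium gave values that belong to no comparison above. Immature sensory neuron markers (6 genes) had a median log2 fold change of -0.01 in the Kir2.1 mice and 0.04 in the PEA-exposed mice, with 0 and 1 gene higher at an unadjusted p under 0.05. Sustentacular markers (8 genes), of the supporting cells that include keratins 8 and 18, had medians of -0.09 and 0.09, with 1 gene higher in each experiment at that level. Markers of olfactory ensheathing and Schwann cells, which also use Ngfr, had medians of 0.09 over 9 genes and -0.05 over 6 genes, with 1 gene higher in the Kir2.1 mice and 2 lower in the PEA-exposed mice.

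Krt15 stood apart from the other 7 genes in both experiments. Its highest value was 12.1 times its lowest over the 6 mice of the Kir2.1 experiment and 3.93 times over the 8 mice of the PEA experiment. The same ratio was 1.35 to 2.12 for the other 7 genes in the Kir2.1 experiment and 1.45 to 2.46 in the PEA experiment.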
